A study of Mus musculus with 2 samples.

Results

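The genes described here are 53 ligands, receptors, Smads, antagonists and targets of the TGF-beta and BMP pathways, among 23784 genes named on a mouse expression array. They were found by matching the RefSeq accession of each non-control probe to a gene name, and all 53 had at least 1 probe (88 probes in total). The cells were a stem cell line from mouse glioblastomas raised de novo with an SB transposon and kept as neurospheres in Neurobasal with B27, N2, EGF and bFGF. The control group carried a lentiviral non-target shRNA and the Gli2 shRNA group a lentiviral shRNA against Gli2, both as stably transduced cells of this line, and each group has 1 array. The study asked how gene expression differs when Gli2, a transcription factor of the Hedgehog pathway, is suppressed. Both groups thus share the tumour of origin, the growth factors and a lentiviral transduction, and a single line stands for the tumour.

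TGF-beta family ligands are secreted dimers that bind pairs of type II and type I receptor kinases at the cell surface. The receptors phosphorylate Smad proteins, which enter the nucleus with Smad4 and act on target genes. The TGF-beta and activin arm acts mainly through Smad2 and Smad3, and the BMP arm through Smad1, Smad5 and Smad9. TGF-beta is stored in the matrix in a latent form bound by the Ltbp proteins, whereas BMPs are held back by secreted antagonists such as noggin and chordin. In glioblastoma TGF-beta is known for keeping stem-like cells undifferentiated, and BMPs for driving them towards an astrocyte fate.

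A value below is the processed signal of a spot in arbitrary units, with the control array always given first and the Gli2 shRNA array second, and a difference is the log2 signal in the Gli2 shRNA array minus that in the control array, after each array was divided by its 75th percentile (signals of 329 and 399). The error after ± is the scanner software's error of both spots, which covers the spot and not the culture. With 1 array in each group there is no replicate and no test, so that groups can be compared only by size. A gene was measured on an array when its brightest probe was marked as well above background, and a size of 2-fold or 1.5-fold is used to count genes. Gli2 itself was at 98.1 and 57.9, a difference of -1.04 ± 0.22, which leaves 48.7% of the control level. It was short of 2-fold with median scaling (-0.90), cyclic loess (-0.97) and normexp (-0.64). All 10 markers of neural stem and glioma cells, such as Sox2 and Nes, were measured on both arrays, with Ptprz1 (-1.08 ± 0.20) past 2-fold. Of the markers of other cells, 3 of 8 for microglia and macrophages (Csf1r, Cd68 and Itgam), 3 of 6 for endothelium (Pecam1, Kdr and Esam) and 1 of 7 for fibroblasts and pericytes (Acta2) were measured on both arrays. Cx3cr1 and Ptprc of microglia, Cdh5 and Cldn5 of endothelium and Pdgfrb and Lum of stroma were not well above background on either array. Aif1, P2ry12 and Tmem119 of microglia were well above background in the control alone. The summed signal of the 8 microglia and macrophage markers was 5492 and 6282, with Itgam at 4694 and 5413, Csf1r at 390 and 432 and Cd68 at 344 and 398. For 6 endothelial markers the sum was 149 and 153, and for 7 fibroblast and pericyte markers 7828 and 8289, nearly all from Acta2 (7786 and 8242). These signals and sums are not scaled, and the Gli2 shRNA array was brighter as a whole. After scaling, the differences were -0.07 for Itgam, -0.13 for Csf1r, -0.07 for Cd68 and -0.19 for Acta2. In endothelium they were -0.04 for Pecam1, -0.48 for Kdr and 0.04 for Esam. The part of such cells in the results was not tested, and fewer cells of a type cannot be told apart from less RNA per cell.

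Of the 53 genes, 42 were measured on both arrays. Ltbp2, Bmp4 and Bmp5 were measured in the control alone, Bmp2 and Bmp6 in the Gli2 shRNA array alone, and 6 genes on neither (Inhba, Bmp3, Smad9, Grem1, Gdf10 and Fst). Among the 42, 3 genes were past 2-fold, with Inhbb and Tgfb1 higher and Smad2 lower on the brighter of 2 probes that disagreed, against 3.63% of the 14563 named genes measured on both arrays (1.84% higher and 1.79% lower). At 1.5-fold 14 genes were past the size, 6 higher and 8 lower (33.3%), against 12.5% of all named genes (6.0% higher and 6.54% lower). As many members lay above 0 as below it, 21 each, and their median of -0.01 was close to that of all named genes (0.0029).

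Among genes measured on both arrays, those of the TGF-beta arm had a larger median size of difference than those of the BMP arm. In the TGF-beta arm 12 of 21 genes measured on both arrays were past 1.5-fold, 6 higher and 6 lower (57.1%, against 12.5% of all named genes), and the median size of the difference was 0.62, against 0.20 for all named genes. In the BMP arm 2 of 14 genes were past 1.5-fold, both lower (14.3%), and the median size was 0.32. These counts leave out Bmp2 and Bmp6 of the BMP arm, which were measured in the Gli2 shRNA array alone. Before spot error, they were at least 3.86-fold and 2.02-fold higher. None of the 7 measured genes that serve both arms was past 1.5-fold, and their median size was 0.11. The medians with sign were 0.05 for the TGF-beta arm and -0.10 for the BMP arm, a gap of -0.15. These counts for each arm were chosen after the data were seen, and the difference between the arms was not tested, since the series has no replicates. The 6 lower TGF-beta genes include 5 that lie between -0.67 and -0.61, close to the 1.5-fold limit of 0.58, so that the count depends on the scaling. It was 7 with median scaling (6 higher and 1 lower, against 13.6% of all named genes) and 7 with normexp background correction (3 higher and 4 lower, against 6.08%), and 10 to 12 of the genes measured in the other settings that keep a filter on dim probes.

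**Figure D1:**
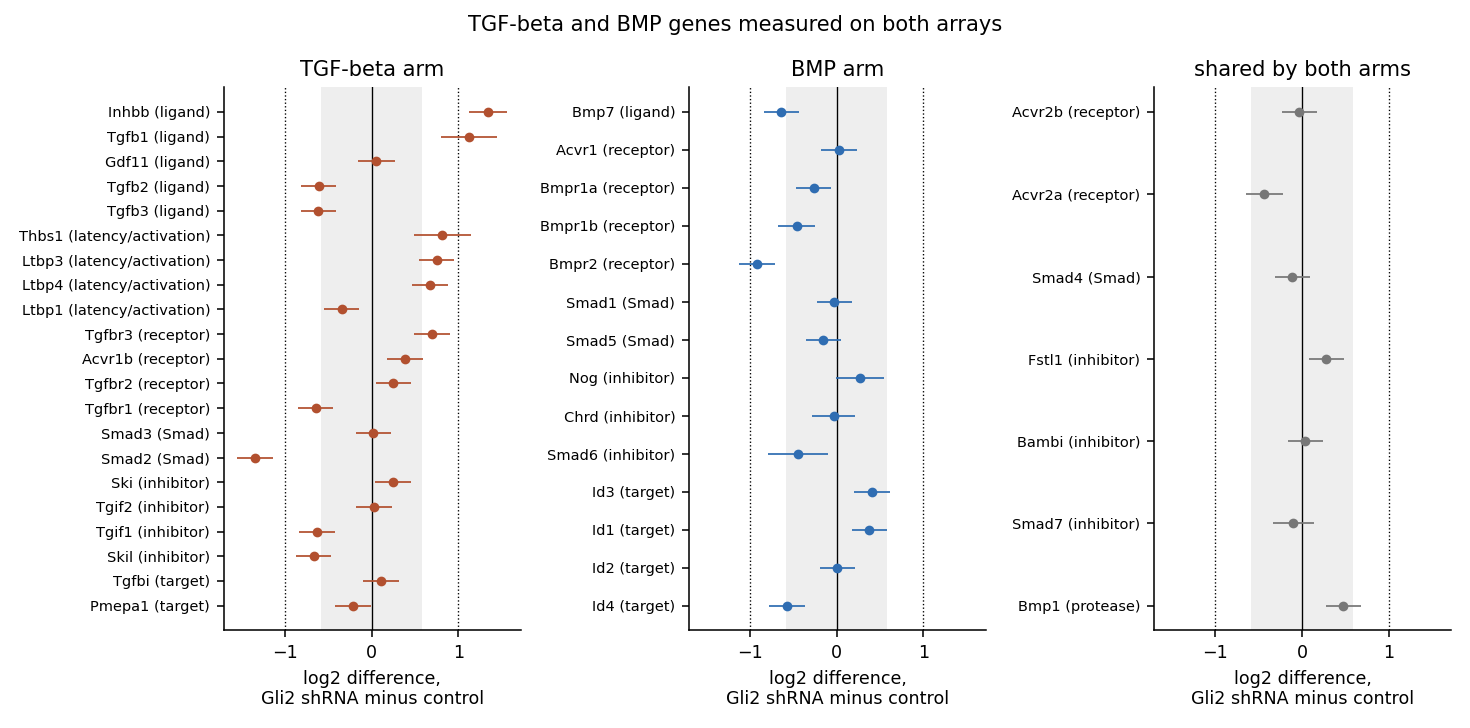
Log2 difference (Gli2 shRNA minus control) of the 42 genes measured on both arrays, by arm, with the role of each gene in brackets and bars for the software error of both spots. The grey band is 1.5-fold and the dotted lines are 2-fold, and 12 TGF-beta genes lie outside the band on both sides of 0, against 2 BMP genes, both below 0.

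**Figure D2:**
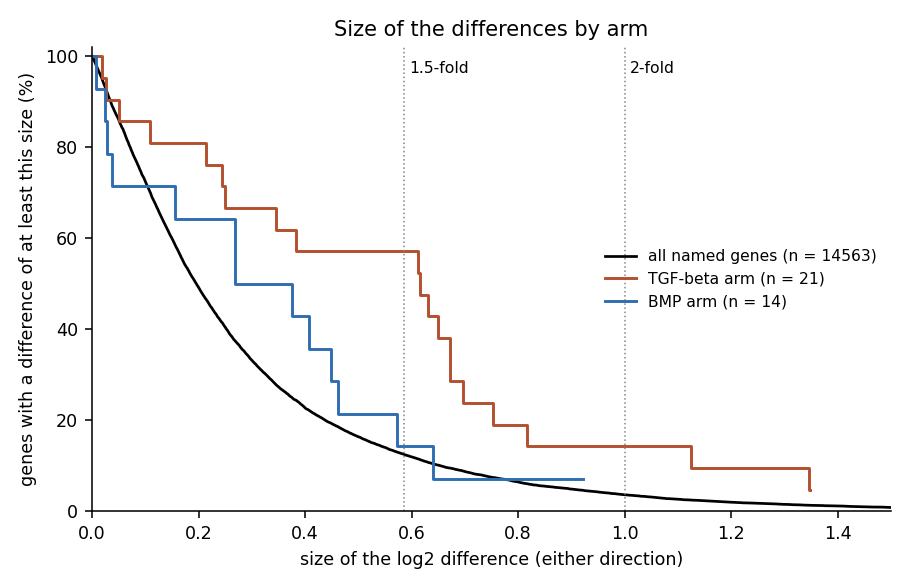
Percentage of genes whose log2 difference, in either direction, is at least the size on the horizontal axis, for all 14563 named genes measured on both arrays (black), the 21 TGF-beta genes (red-brown) and the 14 BMP genes (blue). At 1.5-fold the TGF-beta line stands at 57.1%, the BMP line at 14.3% and the line of all genes at 12.5%.

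For reference, the promoters of the genes at both ends of this range are given below, since the shRNA is aimed at a DNA-binding factor and the members include targets of DNA-binding Smads. RefSeq promoter windows of assembly GRCm38.p6 were matched by symbol for 37 of the 53 genes (49 windows), and the 250 bases before the start were searched on both strands for GACCACCCA (the GLI consensus), GTCTAGAC (the palindromic Smad element), GGCGCC (a GC-rich element of Smad1 and Smad5) and CAGAC (the Smad box). No motif lies inside another. The windows shown are those of the 2 highest and the 2 lowest genes that the table holds, written 5′ to 3′ on the strand of the gene, with matches in capitals. Tgfbr1 has 2 windows in the table, of which the first is shown.

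Inhbb, chr1:119422249-119422498, minus strand: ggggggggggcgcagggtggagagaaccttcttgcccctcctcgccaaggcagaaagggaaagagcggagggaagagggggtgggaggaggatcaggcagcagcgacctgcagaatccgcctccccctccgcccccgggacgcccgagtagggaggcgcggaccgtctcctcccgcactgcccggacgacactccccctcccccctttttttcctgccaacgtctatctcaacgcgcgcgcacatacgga

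Tgfb1, chr7:25686752-25687001, plus strand: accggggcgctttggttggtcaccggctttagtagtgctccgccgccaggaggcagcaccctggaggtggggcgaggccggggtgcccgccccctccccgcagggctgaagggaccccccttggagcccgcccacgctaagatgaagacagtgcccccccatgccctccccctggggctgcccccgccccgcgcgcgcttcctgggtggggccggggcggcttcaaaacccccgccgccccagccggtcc

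Bmpr2, chr1:59764029-59764278, plus strand: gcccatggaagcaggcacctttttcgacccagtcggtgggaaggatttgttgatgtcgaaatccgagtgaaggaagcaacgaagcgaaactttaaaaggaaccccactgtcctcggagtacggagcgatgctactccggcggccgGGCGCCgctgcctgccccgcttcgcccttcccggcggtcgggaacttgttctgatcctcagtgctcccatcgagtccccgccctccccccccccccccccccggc

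Tgfbr1, chr4:47352972-47353221, plus strand: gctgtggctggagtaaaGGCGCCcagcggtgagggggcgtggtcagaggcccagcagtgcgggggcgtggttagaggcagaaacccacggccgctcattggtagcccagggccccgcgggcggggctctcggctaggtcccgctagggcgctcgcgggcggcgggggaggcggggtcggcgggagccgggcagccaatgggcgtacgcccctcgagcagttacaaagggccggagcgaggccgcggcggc

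The Inhbb and Tgfb1 windows hold none of the 4 motifs, and the Bmpr2 and Tgfbr1 windows shown hold GGCGCC once each. The Tgfbr1 window that is not shown holds CAGAC. Over all 49 member windows GGCGCC was found in 13 (26.5%), against 9.59% of the 32851 windows in the table. The member windows also had more G and C, with a median of 66.4% against 52.4%, and the part of base composition in that share was not tested. CAGAC was in 21 member windows (42.9%), close to its share in all windows (42.2%). The GLI consensus and the palindromic element were in 0 of the 49 windows, and they occur in 0.225% and 0.167% of all windows. Of the genes measured on both arrays, 4 of the 10 with GGCGCC lay above 0 and 6 below, and 11 of the 19 without it lay above 0 and 8 below. For CAGAC, 4 of the 12 genes with it lay above 0 and 8 below, and 11 of the 17 without it lay above 0 and 6 below. These splits were not tested. A match describes the letters in these windows and is not a binding site.

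The TGF-beta ligands split, with Tgfb1 and the activin subunit Inhbb higher and Tgfb2 and Tgfb3 lower. Inhbb, which encodes the beta B subunit of activins and inhibins, had a signal of 53.1 and 163.5. Its difference of 1.35 ± 0.22 (2.54-fold) was reached or exceeded by 0.666% of all named genes. Tgfb1, the TGF-beta isoform of most tissues, was at 20.4 and 54.0, 2.18-fold higher (1.12 ± 0.33). Its control signal is near the lowest signal well above background (12.8), and its other probe was not well above background on either array. Genes with a signal under 50 on an array were past 2-fold more often (10.4% of 2231) than genes of at least 50 on both (2.41% of 12332), and Tgfb1 is of the first kind. After normexp correction Tgfb1 was at 0.13 and Inhbb at 0.68.

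Tgfb2, the isoform found in glioma and once named for suppressing T cells, was lower by nearly the same amount on both of its probes. The brighter probe gave 321 and 254 (-0.61 ± 0.21), and the other 154 and 123 (-0.60 ± 0.21). Tgfb3 was at 823 and 651 (-0.62 ± 0.20). The raw signals of both genes differ less than the scaled values, because the Gli2 shRNA array was brighter as a whole. Gdf11, a ligand that signals through Smad2 and Smad3, was at 90.6 and 114 (0.05 ± 0.21), and Inhba, the beta A subunit, was not well above background on either array.

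Of 5 genes of TGF-beta storage and activation, Ltbp3, Ltbp4 and Thbs1 were higher by over 1.5-fold, and Ltbp1 and Ltbp2 lay below 0. Ltbp3, a latent TGF-beta binding protein, was at 1155 and 2356 (0.75 ± 0.20, or 1.68-fold), and a dimmer second probe gave 0.47 ± 0.22. Ltbp4, of the same family, was at 1196 and 2308 (0.67 ± 0.20). A second Ltbp4 probe gave 0.69 ± 0.20, and the third, designed to another transcript (NM_001310678), gave -0.17 ± 0.32 at a signal of 24.0 and 25.9. Thbs1, the matrix protein thrombospondin that activates latent TGF-beta, was at 18.6 and 39.7 (0.82 ± 0.33), and its difference with normexp was 0.06. Ltbp1 was at 1093 and 1043 (-0.35 ± 0.20). Ltbp2, which unlike the others does not bind latent TGF-beta covalently, was measured on the control array only, at 20.9 against 15.6 (-0.70 ± 0.45).

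Among the receptors of this arm, the type I receptor Tgfbr1 was lower and the coreceptor Tgfbr3 higher. Tgfbr1 was at 643 and 497 (-0.65 ± 0.20), and its dimmer probe was further from 0 (-1.14 ± 0.32, signals of 42.1 and 23.1). Tgfbr3, or betaglycan, which presents TGF-beta2 to the signalling receptors and binds inhibin, was at 180 and 353 (0.70 ± 0.21, or 1.62-fold). The type II receptor Tgfbr2, which binds the ligand and activates Tgfbr1, was at 1385 and 1997 (0.25 ± 0.20). Acvr1b, the type I receptor of activins, was at 414 and 654 (0.38 ± 0.20), with 0.06 ± 0.37 on a dim second probe. For the last 2 the difference was below 1.5-fold.

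Smad2 had no settled direction, because its 2 probes disagreed. The brighter probe, designed to NM_001252481, was at 1302 and 620 (-1.35 ± 0.20, or 2.54-fold lower). The other, designed to NM_010754, was at 675 and 889 (0.12 ± 0.20). Their gap of 1.47 was the widest among the 18 members with several probes measured on both arrays. It also lay beyond the 95th percentile of the gap between the 2 brightest probes over all 5415 genes with at least 2 such probes (0.72, with a median of 0.13). Which transcripts each probe detects was not tested. Smad3, the other Smad of this arm, was at 3104 and 3812 (0.02 ± 0.20), with 0.12 ± 0.20 on its second probe.

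The repressors of TGF-beta signalling in the nucleus formed pairs in which 1 member was lower and its relative was not. Skil, which encodes SnoN and binds Smad complexes to silence their targets, was at 906 and 689 (-0.67 ± 0.20), and its 3 probes lay between -0.67 and -0.35. Ski, its closest relative, was at 1509 and 2167 (0.24 ± 0.20). Tgif1, a homeodomain corepressor of Smad2, was at 3449 and 2699 (-0.63 ± 0.20), and its second probe gave the same value (-0.63 ± 0.22). Tgif2 was at 13690.5 and 16896 (0.03 ± 0.20), with 3 probes between 0.03 and 0.09. The targets that stand for the output of this arm lay within 1.5-fold. Pmepa1, a TGF-beta target that feeds back on the pathway, was at 529.5 and 553 (-0.21 ± 0.20), and the matrix protein gene Tgfbi at 457 and 597 (0.11 ± 0.20).

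**Figure D3:**
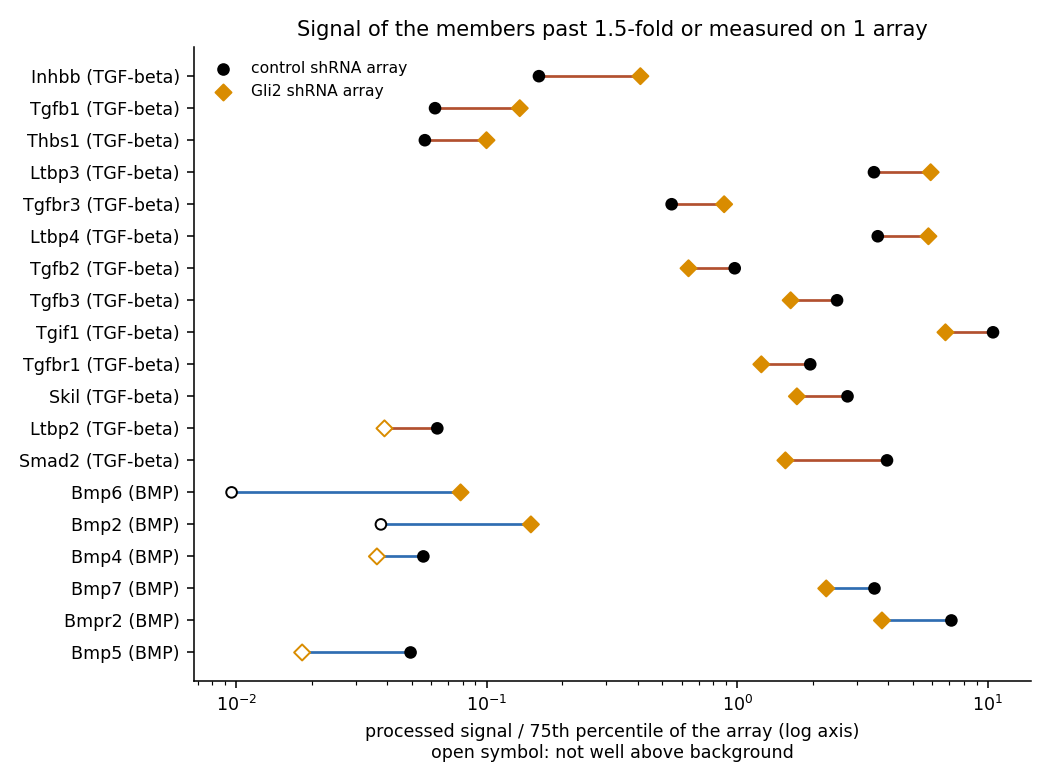
Processed signal divided by the 75th percentile of its array, on a log axis, for the 14 members past 1.5-fold on both arrays and the 5 measured on 1 array. Circles are the control array, diamonds the Gli2 shRNA array, and open symbols were not well above background. Read each line from circle to diamond within a gene, since probes of different genes are not on a common scale: Inhbb, Tgfb1, Thbs1, Ltbp3, Tgfbr3, Ltbp4, Bmp2 and Bmp6 are higher in the Gli2 shRNA array and the other 11 lower.

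In the BMP arm most ligands were near background. Bmp7, which was clearly measured, was at 1160.0 and 902 (-0.64 ± 0.20). Bmp2, an inducer of bone and of astrocyte fate, was measured on the Gli2 shRNA array only, at 59.8 against 12.4. Its difference was 1.99 ± 0.40, with a bound of 3.86-fold higher. Bmp6, a ligand also known for its role in iron regulation, was likewise measured there only, at 31.3 against 3.15. Its difference was 3.04 ± 1.46, with a bound of 2.02-fold higher. Bounds here leave out the spot error. A bound of at least 2-fold was met by 31.1% of the 476 genes measured in the Gli2 shRNA array alone. Bmp4 (18.4 and 14.5, -0.62 ± 0.48) and Bmp5 (16.3 and 7.30, -1.44 ± 0.78) were measured in the control alone. Their bounds were 1.47-fold and 1.30-fold lower. A bound of that kind reached 2-fold for 18.2% of the 931 genes measured in the control alone. Bmp3, which opposes other BMPs, was not well above background on either array.

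The 4 BMP receptors among the members lay below 0 or close to it. Bmpr2, the type II receptor of BMPs, was at 2352 and 1506 (-0.92 ± 0.20, or 1.89-fold lower), and 2.33% of all named genes were as low or lower. The type I receptors Bmpr1b (112 and 98.6, -0.46 ± 0.21) and Bmpr1a (2841 and 2858, -0.27 ± 0.20) were lower by less than 1.5-fold. A second Bmpr1a probe gave -0.44 ± 0.24. Acvr1, the type I receptor also called Alk2, was at 1995 and 2458 (0.02 ± 0.20). Of the 4 receptors in each arm, 3 (Bmpr2, Bmpr1b and Bmpr1a) lay below 0 in the BMP arm and 1 in the TGF-beta arm. The share below 0 over all named genes was 49.7%. In the wider list of pathway genes below, the measured TGF-beta receptors and coreceptors lay below 0 (Eng -0.30, Cfc1 -0.26 and Tdgf1 -0.16). Of the BMP ones there, Amhr2 (0.23), Rgmb (0.19) and Neo1 (0.0008) lay above 0, and Acvrl1 (-0.25) and Rgma (-0.21) below. Second probes gave 0.14 ± 0.20 for Rgma and -0.87 ± 0.28 for Acvrl1. Amhr2 (-0.10) and Rgmb (-0.06) lay below 0 with normexp, and Neo1 (-0.02) with cyclic loess. These receptors were set side by side without a test.

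Smad1 and Smad5 carry the BMP signal into the nucleus. Smad1 was at 2397 and 2848 (-0.03 ± 0.20), and Smad5 at 10756 and 11701 (-0.16 ± 0.20), with -0.26 ± 0.21 on a second Smad5 probe, while Smad9 was near background. Smad6, the inhibitory Smad of BMP signalling, was at 23.3 and 20.7 (-0.45 ± 0.35). The secreted antagonists were dim. Nog, encoding noggin, was at 32.3 and 47.2 (0.27 ± 0.27, and -0.10 with normexp). Chrd, encoding chordin, was at 41.2 and 48.6 (-0.04 ± 0.25). Across the settings Chrd ran from -0.21 with normexp to 0.10 with median scaling. Grem1 was not well above background on either array.

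The Id genes, direct targets of BMP Smads that hold back differentiation by binding bHLH factors, did not share a direction. Id1 was at 1432 and 2251 (0.38 ± 0.20), and Id3 at 4153 and 6671 (0.41 ± 0.20). Id2 was at 5164 and 6289 (0.01 ± 0.20). Id4, the member tied most closely to neural progenitors, was at 157 and 128 (-0.57 ± 0.21). All 4 lay within 1.5-fold, with Id4 just inside it (-0.59, just outside, with quantile normalization). Across the settings Id1 lay between 0.36 and 0.51 and Id3 between 0.40 and 0.54.

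Genes that serve both arms lay within 1.5-fold, although Bmp1 was past it with median scaling (0.61). Smad4, the common partner of the receptor-activated Smads, was at 3959 and 4443 (-0.11 ± 0.20), and its 5 probes lay between -0.13 and 0.14. Smad7, the inhibitory Smad of both arms, was at 45.0 and 50.9 (-0.10 ± 0.24), and Bambi, a pseudoreceptor without a kinase, at 1790.1 and 2227 (0.04 ± 0.20). With median scaling Smad4 was at 0.02 and Smad7 at 0.04, so neither has a direction. The type II receptors Acvr2a (134 and 120.4, -0.43 ± 0.21) and Acvr2b (1703 and 2023, -0.03 ± 0.20) each had a second probe, which gave -0.01 ± 0.22 and -0.38 ± 0.23. Bmp1, a metalloprotease that cleaves chordin and procollagens and is not a BMP ligand, was at 5236 and 8830 (0.48 ± 0.20), with 0.29 ± 0.20 and 0.04 ± 0.20 on its other probes. Fstl1, a secreted follistatin-like protein, was at 10406 and 15313 (0.28 ± 0.20), whereas Fst, the activin antagonist follistatin, and the ligand Gdf10 were near background.

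**Figure D4:**
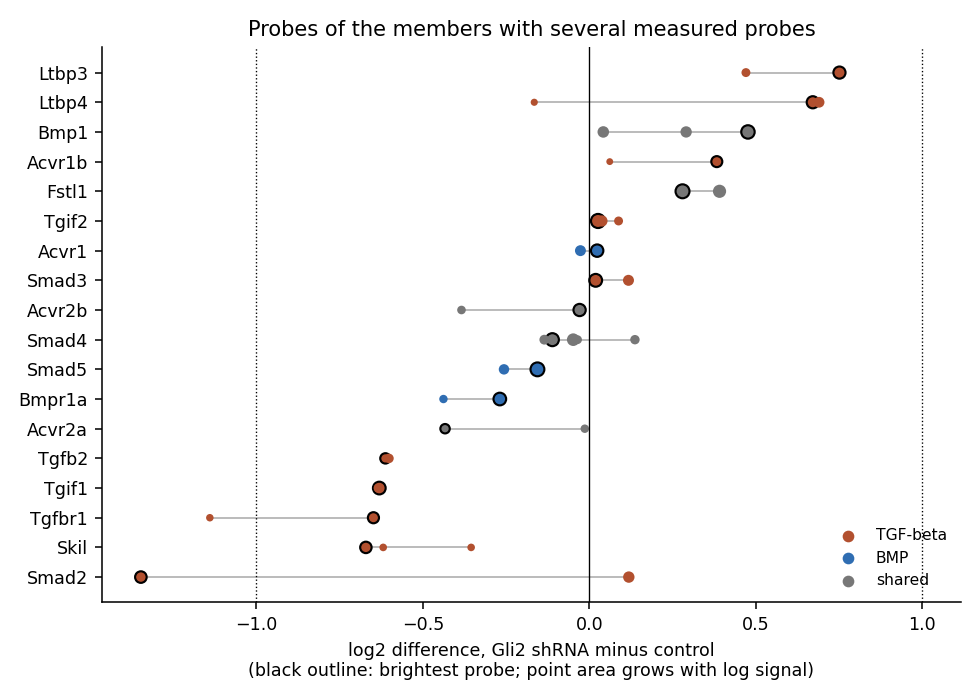
Log2 difference (Gli2 shRNA minus control) of each probe of the 18 members with several probes measured on both arrays, coloured by arm. The black outline marks the brightest probe, larger points are brighter probes, and dotted lines are 2-fold. Tgfb2 and Tgif1 have probes at nearly 1 value, while the probes of Smad2 run from -1.35 to 0.12 and those of Ltbp4 from -0.17 to 0.69.

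Probes of 1 gene give a view of the error that the software does not. For 14 of the 18 members with several measured probes, all probes lay on one side of 0, and Acvr1, Ltbp4, Smad2 and Smad4 had probes on both sides. The gap between the 2 brightest probes had a median of 0.11 over these 18 members, against 0.13 over all 5415 genes of that kind. Its 95th percentile was 0.64 for these members and 0.72 for all such genes, both above the 1.5-fold limit of 0.58, and 0.52 where both probes had a signal of at least 50 on both arrays.

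Other genes of the pathway, listed for their role, were past 1.5-fold in a share near that of all named genes. Of 78 such genes with a probe, 53 were measured on both arrays, and 6 were past 1.5-fold, 3 higher and 3 lower (11.3%, against 12.5% of all named genes). 21 lay above 0 and 32 below, with a median of -0.14. The wider spread of the TGF-beta arm was not seen in this list: 2 of 22 TGF-beta genes (9.09%, median size 0.21) and 3 of 18 BMP genes (16.7%, median size 0.27) were past 1.5-fold. The 2 genes past 2-fold were Chrdl1 and Lrrc32. Chrdl1, which encodes the BMP antagonist chordin-like 1, was at 1084 and 450 (-1.55 ± 0.20, or 2.92-fold lower), and its 3 probes lay between -1.78 and -1.41. Lrrc32, encoding GARP, which docks latent TGF-beta at the cell surface, was at 49.1 and 148 (1.31 ± 0.22, or 2.48-fold higher) on its only probe. Lrrc32 was short of 2-fold with normexp (0.68), and its control signal is under the stricter minimum of 50.

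Further antagonists of BMPs on that list differed in both directions. Bmper, a secreted BMP-binding protein, was at 644 and 448 (-0.80 ± 0.20). Nbl1, a secreted antagonist of the DAN family, was at 643 and 1515 (0.96 ± 0.20, or 1.94-fold). Gadd45b, a stress gene induced by TGF-beta, was at 107 and 259 (0.998 ± 0.21), a little short of 2-fold, and Trim33, a ubiquitin ligase that acts on Smad4, at 329 and 247 (-0.69 ± 0.21). The TGF-beta targets Ccn2 and Snai2 were not well above background on either array, and Fn1, encoding fibronectin, was at 2404 and 2282 (-0.35 ± 0.20). Klf10 (4529 and 5983, 0.12 ± 0.20) and Cdkn2b (1214 and 1701, 0.21 ± 0.20) lay above 0. Of the BMP targets, Hey1 was at 3540 and 3160.4 (-0.44 ± 0.20) and Tob1 at 612 and 909 (0.29 ± 0.20), and Msx1, Msx2, Dlx5 and Atoh8 had signals under 50. Among the 12 targets on that list measured on both arrays, 4 lay above 0 and 8 below.

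**Figure D5:**
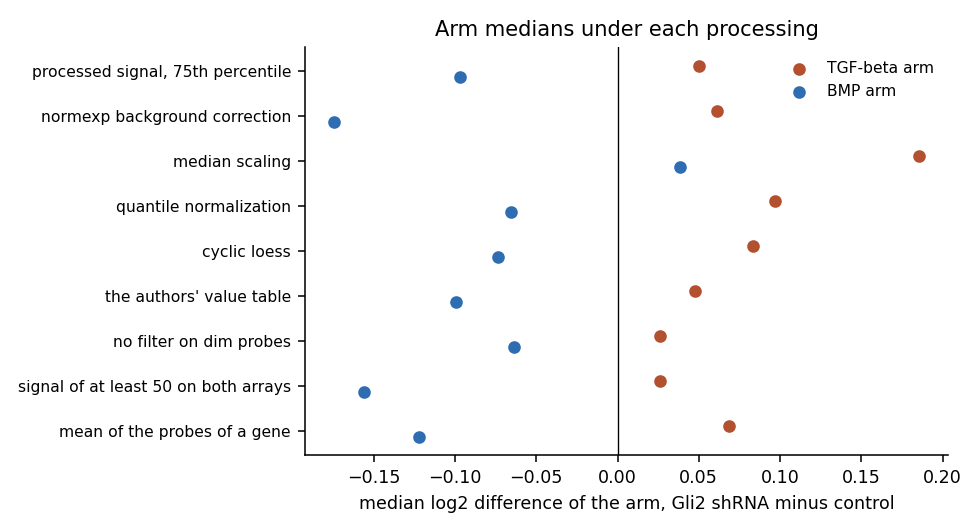
Median log2 difference (Gli2 shRNA minus control) of the TGF-beta arm (red-brown) and the BMP arm (blue) under each processing of the arrays, with 1 row for each. The BMP median lies below the TGF-beta median in each row, and it is above 0 with median scaling (0.04), which raised the median of all genes by 0.14.

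Across the processing settings the BMP arm kept a lower median than the TGF-beta arm, by 0.09 to 0.24. Median scaling and the authors' value table shift all genes by a constant and leave this gap as it is. The BMP median itself was below 0 in the settings other than median scaling, where it was 0.04. Over all named genes 268 were past 2-fold higher and 260 lower, a share of 50.8% higher that was 68.6% with median scaling (384 and 176) and 40.1% with normexp (67 and 100). Of the 42 members measured on both arrays, 18 lay above 0 and 16 below it in each of the alternatives that gave them a value. The settings that change the filter on dim probes leave these values as they are, and the authors' value table nearly so. Those settings could thus hardly change a sign. The 18 include genes well inside the software error, such as Id2 (0.005 at its lowest), Smad3 (0.017) and Tgif2 (0.024).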

How the data were processed

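Both arrays were 1-colour Agilent arrays of Cy3-labelled total RNA on design 074809. Per the file headers, the authors read them with Agilent Feature Extraction 12.1.0.3 (protocol GE1_1200_Jun14, grid build mm9), and the deposited files give the background-subtracted intensity of each spot, its error and flags. Both were on 1 slide and in 1 scan. The authors' deposited value table is on a log2 scale with unstated centring. Set against the scanner values, each column is the log2 intensity minus 8.36 (control) or 8.64 (Gli2 shRNA), with column medians of -3.55 and -3.69. The 75th percentiles of the columns are -5.2e-05 and -6.2e-05. The table is thus centred on the 75th percentile, nearly as here, and is not an independent scaling.

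Control spots and outlier spots (126 and 120) were left out, and spots of a probe were averaged. Each array's log2 processed intensity was centred on its 75th percentile over non-control probes. RefSeq accessions were matched without versions to the gene table of GRCm38.p6 (34560 of 56595 probes). The number of arrays limits the precision. A gene is represented by its brightest probe. A gene measured on 1 array has a bound, with its dim side set to the higher of its own signal and the lowest signal well above background (12.8 in the control, 15.2 in the Gli2 shRNA array). For Ltbp2 its own signal was the higher, so no bound is given.

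The members, the list of 80 other pathway genes (78 with a probe), the arms, sizes and alternatives were chosen with earlier results of these data known. Values are given for every member measured, and of the other pathway genes for those past 2-fold and the 3 highest and 3 lowest. They are also given for the receptors and coreceptors measured on both arrays and for the targets Fn1, Hey1, Klf10, Cdkn2b and Tob1. The targets Ccn2, Snai2, Msx1, Msx2, Dlx5 and Atoh8 are named without their values. All these targets were picked after their values were seen. Alternatives were normexp (offset 50, limma 3.58.1 in R 4.3.3, on median and background intensities, since no mean intensity column was found in the files used here), median scaling, quantile normalization, cyclic loess, no filter on dim probes, a signal of at least 50 on both arrays, the mean of the probes of a gene, and the authors' value table. The 1.5-fold counts for each arm and their alternatives were added after seeing the data. Only the scaling and the 2-fold limit were tested on simulated data, with changes set larger than 2-fold and noise below the software error. The 1.5-fold counts, the choice of probe, the arm medians and the bounds were not tested in this way.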

Additional observations from a re-analysis of the deposited data

How the results depend on the processing

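No paired analysis was possible because each group has 1 array. With 1 array per group no replicate can be left out, and depth here means signal over background, which limits Tgfb1, Thbs1, Bmp2, Bmp4, Bmp5, Bmp6, Ltbp2, Smad6, Nog, Chrd and Smad7. By construction a filter brings fewer or further genes, median scaling adds a constant to every difference, and the normexp offset of 50 draws differences of dim probes towards 0. Beyond that, the cause of the following changes was not tested. With normexp 1 member (Smad2), 1 other pathway gene (Chrdl1) and 167 named genes were past 2-fold, the TGF-beta arm had 7 and the BMP arm 1 gene past 1.5-fold, and Gli2 was at -0.64. With median scaling the BMP median turned from -0.10 to 0.0387, 4 other pathway genes were past 2-fold, and the arms had 7 (TGF-beta) and 1 (BMP) genes past 1.5-fold. Without the filter on dim probes 8 members, 6 other pathway genes and 2844 named genes were past 2-fold, and 6 BMP genes past 1.5-fold. With a signal of at least 50 on both arrays 1 other pathway gene (Chrdl1) and 297 named genes were past 2-fold. With cyclic loess Thbs1 (1.02) was also past 2-fold, which made 4 members, and with the mean of probes Smad2 was at -0.61. Of the 42 members, 5 changed sign with median scaling, 4 with normexp, 2 with cyclic loess, and 1 each with quantile normalization and the mean of probes. The counts of the arms and both medians otherwise stayed within 1.5 times or within the software error.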
